A study of Homo sapiens with 18 samples.

Results

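The genes described here are 8 genes of sterol metabolism, HMGCS1, IDI1, FDFT1, SQLE, MSMO1, DHCR7, SREBF2 and INSIG1, taken by gene symbol out of 60675 human gene rows. The first 6 encode enzymes of cholesterol synthesis, and SREBF2 and INSIG1 encode regulators of it. None of the 8 encodes a receptor, so sterol uptake itself was not covered. All 8 were among the 26804 genes that passed the expression filter, with between 936 and 16710 counts per gene and library.

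The RNA was that of HEK293T, a line derived from human embryonic kidney, in which doxycycline (1 µg/mL, 24 h) induced YTHDF1, YTHDF2 or YTHDF3 fused to the RNA editing enzyme ADAR. The YTHDF proteins bind N6-methyladenosine in mRNA, and the fused deaminase edits adenosines near the place of binding, which leaves a mark on the transcripts that were met. All cells had 10 min of cycloheximide at 100 µg/mL before lysis, and the polysome fractions of a sucrose gradient were pooled. Polysome RNA and total RNA were each sequenced in 3 libraries for cells with YTHDF1-ADAR, with YTHDF2-ADAR and with YTHDF3-ADAR, so that there were 6 groups and 18 libraries. Every group carried a fusion and both drugs, and no library without them was analysed here. It is not stated whether the 3 libraries of a group came from separate cultures, so p-values measure the spread between these libraries, which may be technical, and whether a line is 1 clone is not stated either.

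Cholesterol is built from acetyl-CoA through mevalonate, isoprenoids and squalene, and the genes of this route share 1 main switch. When sterols in the endoplasmic reticulum are low, the precursor encoded by SREBF2 is carried by its escort SCAP to the Golgi and cut there, and the freed fragment enters the nucleus and turns on the synthesis genes and SREBF2 itself. When sterols are high, INSIG1 holds the SCAP complex in the endoplasmic reticulum, and INSIG1 is in turn a target of the factor it restrains. These mRNAs are therefore known to rise and fall together.

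The promoters of the members were searched for sequence elements known from that switch. The windows below, from RefSeq on GRCh38.p14, run from 250 bases before to 50 bases after an annotated start, 5′ to 3′ on the strand of the gene. They belong to 4 members with results below and are not all the windows found. Capitals mark the core TCACCCCAC of the sterol regulatory element, the E box CACGTG and the CCAAT box, each searched on both strands. SREBF2 is at chr22:41832855-41833154 (+), INSIG1 at chr7:155297628-155297927 (+), IDI1 at chr10:1048837-1049136 (-) and MSMO1 at chr4:165327419-165327718 (+). Further windows of IDI1 and the windows of HMGCS1 and DHCR7 are not shown. Those of IDI1 at chr10:1056655-1056954 (-), HMGCS1 at chr5:43313132-43313431 (-) and DHCR7 at chr11:71448994-71449293 (-) held none of the elements marked here.
SREBF2: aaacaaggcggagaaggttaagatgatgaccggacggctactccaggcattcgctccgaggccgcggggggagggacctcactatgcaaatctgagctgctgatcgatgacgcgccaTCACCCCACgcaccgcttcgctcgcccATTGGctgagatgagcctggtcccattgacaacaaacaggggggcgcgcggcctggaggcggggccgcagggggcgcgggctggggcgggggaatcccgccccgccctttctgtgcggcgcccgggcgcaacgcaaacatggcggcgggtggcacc
INSIG1: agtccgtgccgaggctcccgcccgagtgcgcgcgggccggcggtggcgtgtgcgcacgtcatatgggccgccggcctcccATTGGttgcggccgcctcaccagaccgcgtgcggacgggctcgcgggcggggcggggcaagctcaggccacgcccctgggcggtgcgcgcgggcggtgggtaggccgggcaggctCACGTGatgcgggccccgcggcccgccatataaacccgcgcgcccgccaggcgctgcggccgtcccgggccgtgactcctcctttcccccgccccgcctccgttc
IDI1: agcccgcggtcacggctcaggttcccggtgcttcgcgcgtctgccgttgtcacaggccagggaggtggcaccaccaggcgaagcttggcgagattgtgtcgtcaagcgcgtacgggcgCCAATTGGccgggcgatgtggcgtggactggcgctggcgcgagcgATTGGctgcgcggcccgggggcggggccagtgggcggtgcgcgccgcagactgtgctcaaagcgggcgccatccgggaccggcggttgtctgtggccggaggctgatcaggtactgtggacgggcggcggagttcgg
MSMO1: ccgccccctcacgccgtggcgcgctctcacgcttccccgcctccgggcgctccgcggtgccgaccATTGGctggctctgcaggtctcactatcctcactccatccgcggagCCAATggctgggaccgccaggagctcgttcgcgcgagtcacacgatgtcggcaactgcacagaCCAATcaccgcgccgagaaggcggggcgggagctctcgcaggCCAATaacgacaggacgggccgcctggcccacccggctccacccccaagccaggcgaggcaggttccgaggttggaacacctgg

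Of the 8 members, 6 were found in the promoter table, with 10 windows between them. The core TCACCCCAC occurred in 1 member, SREBF2, beginning at position -133 from the start, and in 151 of 35116 windows in the table (0.430%). The looser form TCACNCCAC occurred in 1.13% of windows and among the members matched only that same SREBF2 site. The E box, which SREBP proteins can also bind, occurred in 1 of 6 member genes, INSIG1, at -55. It occurred in 7.26% of windows and in 12.2% of tested protein-coding genes with a window. At least 1 CCAAT box, the element bound by NF-Y, occurred in 6 of 6 member genes (7 of their 10 windows) and in 43.1% of the 12104 tested protein-coding genes in the table. MSMO1 had 4 of them, at -185, -139, -76 and -34, and in IDI1 the boxes at -132 and -129 overlap on opposite strands. A GC box (GGGCGG), the element of SP1, also occurred in 6 of 6 member genes, against 74.9% of those protein-coding genes. A match describes the letters only, since binding was not measured.

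Libraries held between 42.7e6 and 67.5e6 counts. Levels are CPM, counts per library total on a shared scale, with TMM factors that were between 1.077 and 1.235 in polysome libraries and between 0.721 and 1.012 in total RNA libraries. The gene of each fusion had its highest mean in its own line in both fractions, YTHDF1 reaching 445 CPM, YTHDF2 312 CPM and YTHDF3 89.1 CPM over all libraries. For YTHDF3 in polysome RNA the ranges overlapped, with 74.3 to 89.1 CPM in its own line and 72.3 to 79.4 CPM in YTHDF1-ADAR cells. Reads of the fusion and of the cell's own gene cannot be told apart. ADARB1 differed most, from 32.4 CPM in YTHDF2-ADAR cells to 1650 CPM in YTHDF3-ADAR cells. Of the HEK293T markers, 6 of 6 were detected in every library, led by NEFM with a mean of 459 CPM. Among them GATA3 (5.41 CPM), PAX2 (5.18) and LHX1 (2.87) stood below the fibroblast marker COL1A1, which averaged 13 CPM. The hepatocyte, leukocyte and endothelial markers ALB, APOA1, PTPRC and PECAM1 averaged at most 0.137 CPM. The libraries of YTHDF3-ADAR replicate 1 stood apart in both fractions for SREBF2 and INSIG1. The contrasts of these genes between fractions and between lines are given with and without those libraries. Correlations over libraries and the further gene lists are given only with them. A difference in bulk RNA does not tell fewer expressing cells from less RNA per cell.

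Per kilobase of exon, which allows genes to be compared, INSIG1 stood highest over the 18 libraries with a mean of 42.5 CPM per kb. It was followed by SQLE (36.3 CPM per kb), DHCR7 (30.6), FDFT1 (24.2), SREBF2 (23.4), IDI1 (17.1), MSMO1 (14.4) and HMGCS1 (12.7). Among tested genes these levels ran from the 83.6th percentile (HMGCS1) to the 95.5th (INSIG1). The order depended on the group: in YTHDF2-ADAR total RNA DHCR7 led with 34.3 ± 1.17 CPM per kb, ahead of SQLE with 31.1 ± 2.27 and INSIG1 with 30.7 ± 1.12 (SD, n = 3), and the last 2 overlapped within their SD. In YTHDF1-ADAR total RNA INSIG1 (34.4 ± 4.01 CPM per kb) and SQLE (33.8 ± 3.54) also overlapped. From the lowest to the highest library, a member's CPM varied between 1.61-fold (SQLE) and 2.72-fold (INSIG1).

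**Figure D1:**
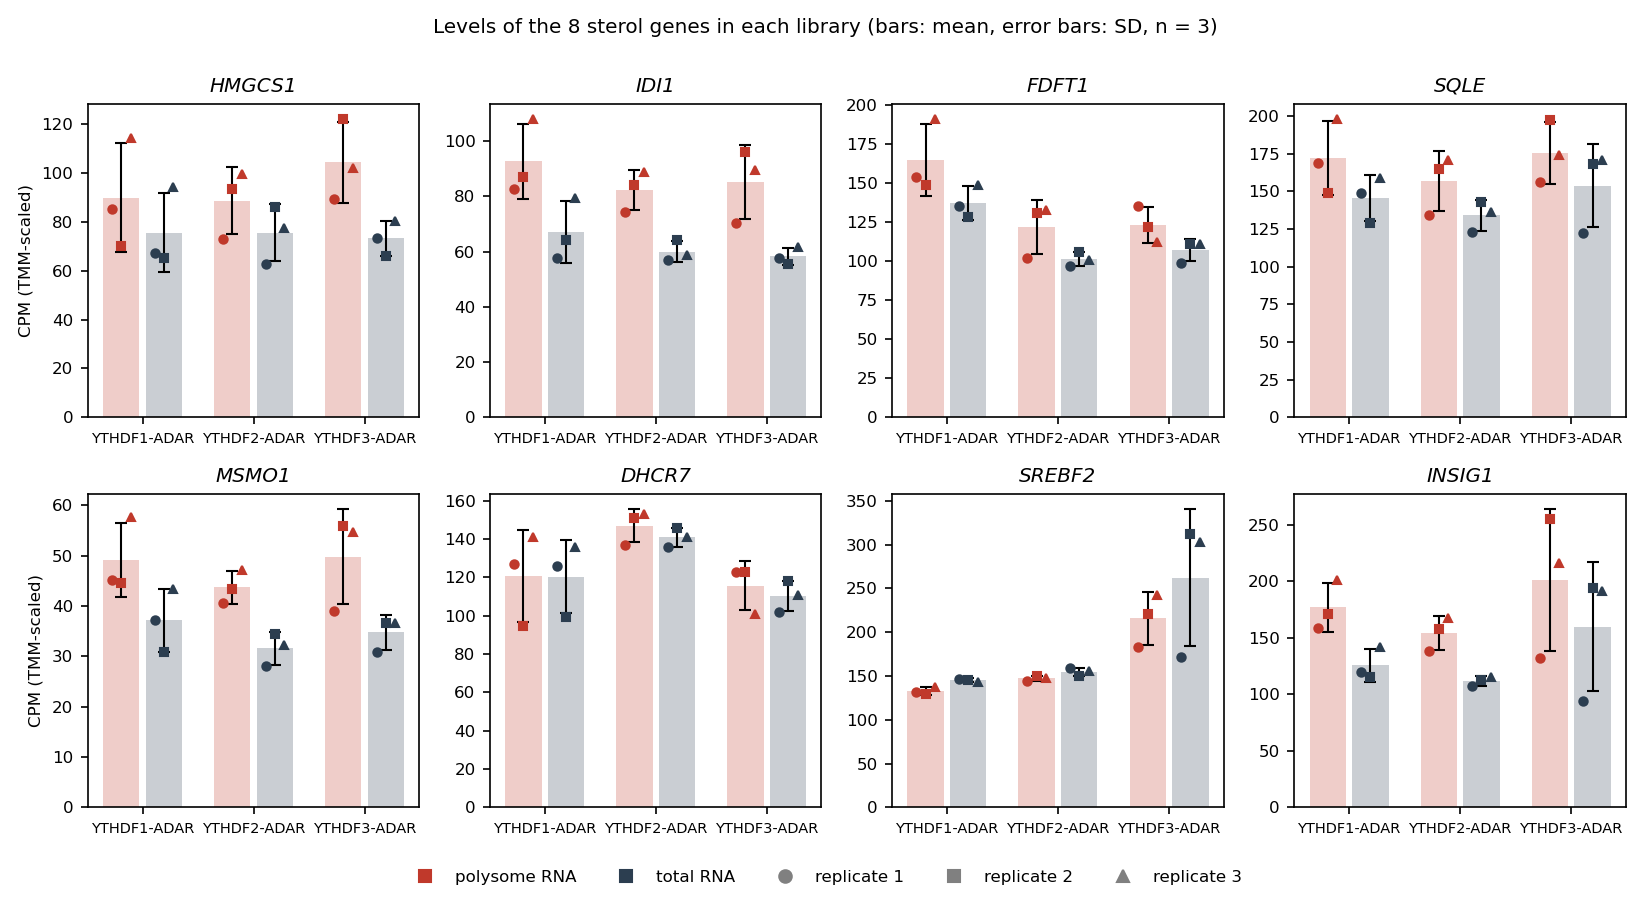
Levels of the 8 genes in CPM (TMM-scaled, vertical axes starting at 0) in polysome RNA (red) and total RNA (dark) of the 3 lines; points are single libraries with a marker for each replicate number, bars are means and error bars are SD (n = 3). IDI1 and MSMO1 polysome bars stand above their total RNA bars in each line, and SREBF2 is highest in YTHDF3-ADAR cells, where replicate 1 lies below the other libraries of its group.

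The first question was how far each mRNA was found on polysomes relative to its level in total RNA. Called genes had an adjusted p under 0.05 in edgeR's quasi-likelihood test, with Benjamini-Hochberg adjustment over all tested genes. IDI1 was called higher on polysomes in all 3 lines and MSMO1 in YTHDF3-ADAR cells, while SREBF2 had values below 0 and DHCR7 values near 0. The members called higher numbered 1 of 8 in YTHDF1-ADAR cells, 1 of 8 in YTHDF2-ADAR cells and 2 of 8 in YTHDF3-ADAR cells, with none called lower. Over all tested genes, 9.26%, 6.71% and 8.01% were called higher and 11.9%, 9.04% and 12.1% lower in the same 3 lines. In this fit, without pairing, the member counts are too small to set apart from these shares. The member median log2 fold change was 0.25, 0.25 and 0.27 in cells with YTHDF1-ADAR, YTHDF2-ADAR and YTHDF3-ADAR, and the median over all tested genes was 0.03, 0.03 and -0.05. Without TMM factors the medians of all genes moved to 0.46, 0.40 and 0.25 and those of the members to 0.68, 0.60 and 0.58, and 87.7%, 87% and 80.3% of all calls were higher, against 43.7%, 42.6% and 39.8% with the factors. The changes below are thus relative to the bulk of genes in a library. SREBF2 had log2 fold changes of -0.13, -0.08 and -0.28, which became 0.30, 0.29 and 0.04 without factors, below the median of all genes in each line.

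Within a line, the labels number polysome and total RNA libraries alike but state no pairing. Same-numbered libraries deviated together in all 9 pairs, with r between 0.18 and 0.70. Of 18 pairs of different number 4 also exceeded 0.1, the highest with 0.62, so the pairing is not certain. A fit with the replicate number as a block was computed too. It moved no member's log2 fold change by more than 0.05 but lowered the standard errors. With the replicate block 5, 4 and 4 of 8 members were called higher in cells with YTHDF1-ADAR, YTHDF2-ADAR and YTHDF3-ADAR and none lower. In that fit 18.7%, 15.5% and 13.6% of all tested genes were called higher and 18%, 15% and 20.1% lower. The member counts with the block lie above the shares called higher, but the members move together and the excess was not tested. These shares are over all tested genes, of which 15675 were protein-coding. No polysome share or median was computed for coding genes at the members' levels, so the background is not a matched one. Member by member, 6 of the 8 were higher on polysomes in 9 of 9 same-numbered pairs, a state reached by 17.9% of tested genes, and the exceptions were DHCR7 with 7 of 9 and SREBF2 with 1 of 9.

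**Figure D2:**
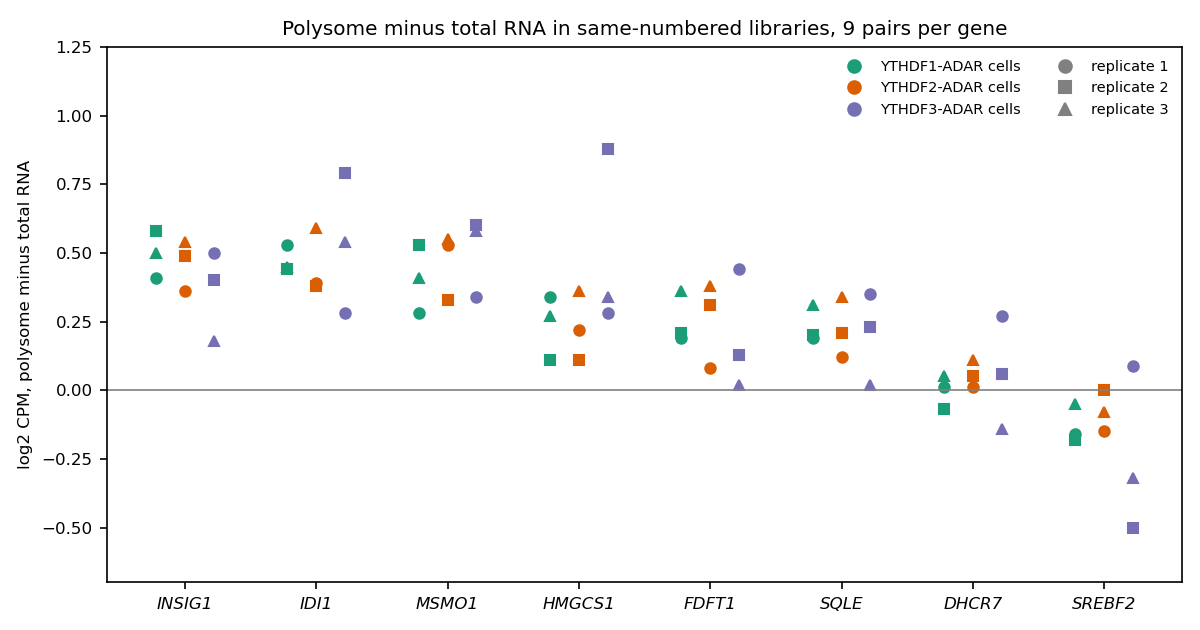
Difference in log2 CPM between polysome and total RNA in same-numbered libraries (vertical axis) for each gene (horizontal axis), 9 pairs a gene, coloured by line and with a marker for each replicate number. The points of INSIG1, IDI1, MSMO1, HMGCS1, FDFT1 and SQLE all lie above 0, DHCR7 lies around 0 with a median of 0.05, and SREBF2 has a median of -0.15.

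IDI1, the isomerase that interconverts the 5-carbon isoprenoid units, was measured at 82.8, 87.1 and 108 CPM in polysome RNA of YTHDF1-ADAR cells, against 57.5, 64.2 and 79.4 CPM in total RNA. In YTHDF2-ADAR cells it had 74.3, 84.0 and 88.7 CPM in polysome RNA, against 56.9, 64.3 and 58.8 CPM in total RNA, and in YTHDF3-ADAR cells 70.2, 96.1 and 89.5 CPM, against 57.8, 55.5 and 61.7 CPM. Every polysome library lay above every total RNA library of its line, as it did for 26.4% of tested genes with YTHDF1-ADAR, 25.4% with YTHDF2-ADAR and 10.6% with YTHDF3-ADAR. The log2 fold change was 0.47 ± 0.14 (SE, adjusted p = 0.0245, edgeR) in YTHDF1-ADAR cells, 0.46 ± 0.14 (adjusted p = 0.0337) in YTHDF2-ADAR cells and 0.55 ± 0.14 (adjusted p = 0.0112) in YTHDF3-ADAR cells. These calls rest on few libraries. Without a single library the call was lost in YTHDF1-ADAR cells (without total RNA replicate 1 or 2, or polysome replicate 3; log2 fold change 0.35 to 0.44), in YTHDF2-ADAR cells (without any of the 3 total RNA libraries, or polysome replicate 2 or 3; 0.40 to 0.51) and in YTHDF3-ADAR cells (without polysome replicate 2; 0.45). In fits of only the compared libraries IDI1 was not called with YTHDF1-ADAR (0.41 ± 0.15, adjusted p = 0.082, edgeR) or YTHDF3-ADAR (0.55 ± 0.16, adjusted p = 0.148).

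HMGCS1, the synthase that makes HMG-CoA at the head of the pathway, had 85.1, 70.1 and 114 CPM in polysome RNA of YTHDF1-ADAR cells, against 67.3, 65.0 and 94.2 CPM in total RNA, and these ranges overlapped. In YTHDF2-ADAR cells it had 73.1, 93.2 and 99.5 CPM in polysome RNA, against 62.9, 86.1 and 77.4 CPM in total RNA. In YTHDF3-ADAR cells the groups did not overlap, with 89.1, 122 and 102 CPM in polysome RNA, against 73.3, 66.1 and 80.2 CPM in total RNA. The log2 fold change there was 0.51 ± 0.19 (adjusted p = 0.0684, edgeR), and 0.50 ± 0.10 with the replicate block (adjusted p = 0.00266). It also became a call with DESeq2 (0.57 ± 0.20, adjusted p = 0.0308), with DESeq2 size factors (0.55 ± 0.19, adjusted p = 0.0493, edgeR), without the filter on low counts (0.59 ± 0.18, adjusted p = 0.0479, edgeR) and without TMM factors (0.82 ± 0.22, adjusted p = 0.011, edgeR). In the other lines it was 0.25 ± 0.19 (YTHDF1-ADAR, adjusted p = 0.392) and 0.23 ± 0.19 (YTHDF2-ADAR, adjusted p = 0.464).

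The squalene enzymes had smaller values. FDFT1, squalene synthase, had 154, 149 and 191 CPM in polysome RNA of YTHDF1-ADAR cells, against 135, 128 and 149 CPM in total RNA. In YTHDF2-ADAR cells FDFT1 had 102, 131 and 133 CPM in polysome RNA, against 96.8, 106 and 101 CPM in total RNA, and in YTHDF3-ADAR cells 135, 122 and 112 CPM, against 98.9, 111 and 111 CPM. Its log2 fold changes were 0.26 ± 0.12, 0.27 ± 0.12 and 0.20 ± 0.12 in cells with YTHDF1-ADAR, YTHDF2-ADAR and YTHDF3-ADAR (adjusted p = 0.137, 0.152 and 0.265, edgeR), and the block made the first 2 calls (adjusted p = 0.0434 and 0.047). SQLE, squalene epoxidase, an oxygen-dependent and rate-controlling step, had 169, 149 and 198 CPM in polysome RNA of YTHDF1-ADAR cells, against 149, 129 and 159 CPM in total RNA. It had 134, 165 and 171 CPM in polysome RNA of YTHDF2-ADAR cells, against 123, 143 and 136 CPM in total RNA, and 156, 197 and 174 CPM in polysome RNA of YTHDF3-ADAR cells, against 122, 168 and 171 CPM in total RNA. The SQLE ranges overlapped in each line. Its log2 fold changes of 0.24 ± 0.15, 0.23 ± 0.15 and 0.19 ± 0.15 had adjusted p of 0.273, 0.341 and 0.409 (edgeR), and with the block the YTHDF1-ADAR value of 0.23 ± 0.08 was called (adjusted p = 0.0381).

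The late enzymes differed from each other. MSMO1, which removes the methyl groups at carbon 4 of the sterol ring, had 45.2, 44.6 and 57.6 CPM in polysome RNA of YTHDF1-ADAR cells, against 37.2, 30.8 and 43.4 CPM in total RNA. In YTHDF2-ADAR cells MSMO1 had 40.5, 43.3 and 47.2 CPM in polysome RNA, against 28.0, 34.5 and 32.2 CPM in total RNA, and in YTHDF3-ADAR cells 38.9, 55.8 and 54.7 CPM, against 30.8, 36.7 and 36.7 CPM. Polysome and total RNA libraries did not overlap in any line. It rose by 0.52 ± 0.15 on the log2 scale in YTHDF3-ADAR cells (adjusted p = 0.0258, edgeR), a call lost without total RNA replicate 2 or polysome replicate 2 or 3, and in a fit of only the libraries compared (adjusted p = 0.18). The values of 0.40 ± 0.15 with YTHDF1-ADAR and 0.47 ± 0.15 with YTHDF2-ADAR missed the threshold (adjusted p = 0.0739 and 0.0503), and with the block they were called (adjusted p = 0.00204 and 0.0011).

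DHCR7, the reductase of the last step to cholesterol, had nearly equal levels in both fractions. It had 127, 94.4 and 141 CPM in polysome RNA of YTHDF1-ADAR cells, against 126, 99.3 and 136 CPM in total RNA. In YTHDF2-ADAR cells it had 137, 151 and 153 CPM, against 136, 146 and 141 CPM, and in YTHDF3-ADAR cells 123, 123 and 101 CPM, against 102, 118 and 111 CPM. Its log2 fold changes were 0.00 ± 0.14, 0.06 ± 0.14 and 0.06 ± 0.14 (adjusted p = 0.992, 0.836 and 0.812, edgeR), and no line made a call with the block.

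The 2 regulators had values of opposite sign with TMM scaling. INSIG1, the retention protein, had 159, 171 and 201 CPM in polysome RNA of YTHDF1-ADAR cells, against 120, 115 and 142 CPM in total RNA, and 138, 158 and 167 CPM in polysome RNA of YTHDF2-ADAR cells, against 107, 113 and 115 CPM in total RNA. The groups did not overlap in either line. In YTHDF3-ADAR cells INSIG1 had 132, 255 and 216 CPM in polysome RNA, against 93.8, 194 and 191 CPM in total RNA, where replicate 1 was low in both fractions. The log2 fold changes of 0.50 ± 0.24, 0.46 ± 0.24 and 0.34 ± 0.24 in cells with YTHDF1-ADAR, YTHDF2-ADAR and YTHDF3-ADAR were not called (adjusted p = 0.154, 0.214 and 0.356, edgeR). With the block INSIG1 was higher on polysomes in all 3 lines, by 0.50 ± 0.08, 0.46 ± 0.08 and 0.36 ± 0.08 (adjusted p = 0.000544, 0.00115 and 0.00458).

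SREBF2, the transcription factor gene, had 132, 129 and 138 CPM in polysome RNA of YTHDF1-ADAR cells, against 147, 146 and 143 CPM in total RNA. In YTHDF2-ADAR cells it had 144, 150 and 148 CPM in polysome RNA, against 159, 150 and 156 CPM in total RNA, and in both lines each polysome library lay below each total RNA library before rounding. This state held for 22.3% of tested genes with YTHDF1-ADAR and 21.5% with YTHDF2-ADAR. In YTHDF3-ADAR cells SREBF2 had 183, 221 and 243 CPM in polysome RNA, against 172, 312 and 303 CPM in total RNA, so that total RNA replicate 1 lay below all others of the line. The log2 fold changes were -0.13 ± 0.16, -0.08 ± 0.16 and -0.28 ± 0.16 (adjusted p = 0.625, 0.807 and 0.238, edgeR). Without total RNA replicate 1 the YTHDF3-ADAR value was -0.44 ± 0.10 and was called (adjusted p = 0.00522), and without both replicate 1 libraries, left out after their levels were seen, it was -0.33 ± 0.07 (adjusted p = 0.00312). Leaving out those 2 libraries also made the INSIG1 value of YTHDF3-ADAR cells a call (0.37 ± 0.12, adjusted p = 0.0318), in a fit where 29.9% of genes were called.

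The next comparison asked whether polysome association differed between the fusions. None of the 8 members was called in any of the 3 tests of the difference, and none had an unadjusted p under 0.05. Over all tested genes there were no calls either (0% in each test), DESeq2 called no member, and 166, 877 and 801 genes had an unadjusted p under 0.05 when YTHDF2-ADAR was set against YTHDF1-ADAR, YTHDF3-ADAR against YTHDF1-ADAR and YTHDF3-ADAR against YTHDF2-ADAR. The widest member differences were those of HMGCS1, 0.26 ± 0.27 in the second and 0.28 ± 0.27 in the third of these tests, and those of SREBF2, -0.16 ± 0.23 and -0.21 ± 0.23. The members' standard errors were between 0.17 and 0.34 in this fit, which has no replicate block. With the block no gene was called either (0% in each test), so a missing call does not show equal association. Without both YTHDF3-ADAR replicate 1 libraries, left out after their levels were seen, some genes were called. They numbered 265 (0.97%) for YTHDF3-ADAR against YTHDF1-ADAR and 288 (1.05%) against YTHDF2-ADAR. Member values of these 2 tests are not given here.

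Levels in total RNA were then compared between lines, which share their libraries across the 3 contrasts. SREBF2 was higher in YTHDF3-ADAR cells than in either other line. It stood at 262 ± 78.4 CPM (SD, n = 3) in total RNA of YTHDF3-ADAR cells, at 155 ± 4.57 CPM in YTHDF2-ADAR cells and at 145 ± 2.22 CPM in YTHDF1-ADAR cells. It rose in YTHDF3-ADAR cells by 0.85 ± 0.16 on the log2 scale (1.80-fold) over YTHDF1-ADAR cells (adjusted p = 0.00293, edgeR) and by 0.76 ± 0.16 (1.69-fold) over YTHDF2-ADAR cells (adjusted p = 0.00459). Both calls were lost when only the compared libraries were fitted (0.85 ± 0.21, adjusted p = 0.0838, and 0.75 ± 0.21, adjusted p = 0.0741, edgeR). Even the low replicate 1, at 172 CPM, lay above all 6 libraries of the other lines, a state that 16% of tested genes reached against YTHDF1-ADAR cells and 19.1% against YTHDF2-ADAR cells. Without the replicate 1 libraries of YTHDF3-ADAR cells the total RNA values were 1.05 ± 0.07 and 0.95 ± 0.07 and the polysome RNA values 0.81 ± 0.07 and 0.67 ± 0.07, all called. In polysome RNA the rise was 0.70 ± 0.16 over YTHDF1-ADAR cells (adjusted p = 0.00716) and 0.55 ± 0.16 over YTHDF2-ADAR cells (adjusted p = 0.0218), and the second call was lost without any 1 of the YTHDF2-ADAR polysome libraries or YTHDF3-ADAR polysome replicate 2 or 3 (0.46 to 0.56).

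FDFT1 was the only member called lower. It stood at 107 ± 6.94 CPM in total RNA of YTHDF3-ADAR cells and at 137 ± 10.7 CPM in YTHDF1-ADAR cells, a log2 fold change of -0.36 ± 0.12 (adjusted p = 0.0459, edgeR). This call was lost without any 1 of the 6 libraries, with values of -0.41 to -0.30, and in a fit of only the libraries compared (adjusted p = 0.0952). In polysome RNA the same lines stood at 123 ± 11.1 CPM and 165 ± 23.4 CPM, and FDFT1 fell by 0.42 ± 0.12 on the log2 scale (adjusted p = 0.0201), a call lost without YTHDF1-ADAR polysome replicate 3 or YTHDF3-ADAR polysome replicate 2 or 3, and in a fit of only the libraries compared (-0.39 ± 0.15, adjusted p = 0.121). Without both YTHDF3-ADAR replicate 1 libraries FDFT1 stayed called, with -0.34 ± 0.12 in total RNA and -0.49 ± 0.12 in polysome RNA. YTHDF2-ADAR cells had a similar FDFT1 level, 101 ± 4.52 CPM in total RNA, and their log2 fold change against YTHDF1-ADAR cells was -0.44 ± 0.12 (adjusted p = 0.0863), with every YTHDF2-ADAR library below every YTHDF1-ADAR library in both fractions (11.6% of tested genes in total and 15.2% in polysome RNA). DESeq2 called this difference in total RNA (-0.43 ± 0.13, adjusted p = 0.0371) and in polysome RNA (-0.43 ± 0.13, adjusted p = 0.0331). Without TMM factors FDFT1 made no call in YTHDF3-ADAR against YTHDF1-ADAR cells, with -0.14 ± 0.14 in total and -0.32 ± 0.14 in polysome RNA.

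In total RNA 2 of 8 members were called in YTHDF3-ADAR against YTHDF1-ADAR cells, where 18.1% of tested genes were called, and 1 of 8 in YTHDF3-ADAR against YTHDF2-ADAR cells, where 22.8% were. No member was called in YTHDF2-ADAR against YTHDF1-ADAR cells, where 1.83% of genes were called in total RNA and 2.35% in polysome RNA. In polysome RNA the counts were 2 of 8 against YTHDF1-ADAR cells (23.3% of genes) and 1 of 8 against YTHDF2-ADAR cells (25.1%). The members' shares lie near the background. Without TMM factors 92.7% and 92.2% of calls in total RNA were higher in YTHDF3-ADAR against YTHDF1-ADAR and against YTHDF2-ADAR cells, where with the factors 64% and 66.8% were, and SREBF2 was called higher in both (1.08 ± 0.17 and 0.94 ± 0.17). In polysome RNA the same shares were 72.2% and 78.1% without factors and 51% and 54% with them.

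INSIG1 averaged 159 ± 56.9 CPM in total RNA of YTHDF3-ADAR cells, 112 ± 4.07 CPM in YTHDF2-ADAR cells and 126 ± 14.6 CPM in YTHDF1-ADAR cells. Its log2 fold changes of 0.34 ± 0.24 over YTHDF1-ADAR cells and 0.51 ± 0.24 over YTHDF2-ADAR cells were not called (adjusted p = 0.325 and 0.128, edgeR). Without total RNA replicate 1 of YTHDF3-ADAR cells they were 0.58 ± 0.19 (adjusted p = 0.0231) and 0.75 ± 0.19 (adjusted p = 0.00504). In polysome RNA INSIG1 averaged 201 ± 62.8 CPM in YTHDF3-ADAR cells, 154 ± 15.2 CPM in YTHDF2-ADAR cells and 177 ± 21.7 CPM in YTHDF1-ADAR cells. The log2 fold changes of 0.18 ± 0.24 over YTHDF1-ADAR cells and 0.38 ± 0.24 over YTHDF2-ADAR cells were not called (adjusted p = 0.598 and 0.245, edgeR). Without both YTHDF3-ADAR replicate 1 libraries they were 0.42 ± 0.11 (adjusted p = 0.00475) and 0.63 ± 0.11 (adjusted p = 0.00016), and the total RNA values 0.58 ± 0.11 (adjusted p = 0.000376) and 0.75 ± 0.11 (adjusted p = 3.06e-05), in fits where 47.6%, 49%, 46.3% and 50.3% of genes were called. Those libraries thus decide whether INSIG1 is called higher in YTHDF3-ADAR cells. DHCR7 had a log2 fold change of -0.35 ± 0.14 in YTHDF3-ADAR against YTHDF2-ADAR cells in total RNA (111 ± 8.07 and 141 ± 4.82 CPM, adjusted p = 0.0775) and of -0.35 ± 0.14 in polysome RNA (adjusted p = 0.0779), with no overlap of libraries (15.6% of tested genes in total and 19.6% in polysome RNA). HMGCS1, IDI1, SQLE and MSMO1 had total RNA log2 fold changes between -0.23 and 0.20 in the 3 contrasts, none of them called.

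Within groups the members went up and down together from library to library. After the mean of each group was subtracted, 28 of 28 member pairs had a positive Pearson correlation of log2 CPM over the 18 libraries, with a median of 0.64, a lowest of 0.09 and a highest of 0.87. The points share their lines, and libraries of 1 number may share a culture, so this is a description. The share of positive pairs among other genes is not given, so the count cannot be read as particular to the members. NEMP1, in none of the pathway lists read below, followed the member mean with r = 0.97. SQLE followed the mean of the other 7 most closely (r = 0.96), then MSMO1 (0.88), INSIG1 (0.77), HMGCS1 (0.73), IDI1 (0.72), FDFT1 (0.59), DHCR7 (0.56) and SREBF2 (0.51). The spread was widest for INSIG1, with a residual SD of 0.34 on the log2 scale, and narrowest for FDFT1, with 0.15.

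In each line the same replicate number was lowest in both fractions, while the highest was shared only in YTHDF1-ADAR cells. In YTHDF1-ADAR cells replicate 3 was high, with a mean deviation over the members of 0.22 on the log2 scale in polysome RNA and 0.18 in total RNA, and replicate 2 was low, with -0.16 and -0.14. In YTHDF2-ADAR cells replicate 1 was low, with -0.16 in polysome RNA and -0.09 in total RNA. The highest there was replicate 3 in polysome RNA (0.11) and replicate 2 in total RNA (0.08). In YTHDF3-ADAR cells replicate 1 was low, with -0.19 in polysome RNA and -0.24 in total RNA, led by INSIG1 (-0.55 and -0.69) and SREBF2 (-0.23 and -0.56). The highest there was replicate 2 in polysome RNA (0.16) and replicate 3 in total RNA (0.14). SREBF2 did not take part in the YTHDF1-ADAR and YTHDF2-ADAR shifts, where its deviations stayed between -0.05 and 0.05.

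**Figure D3:**
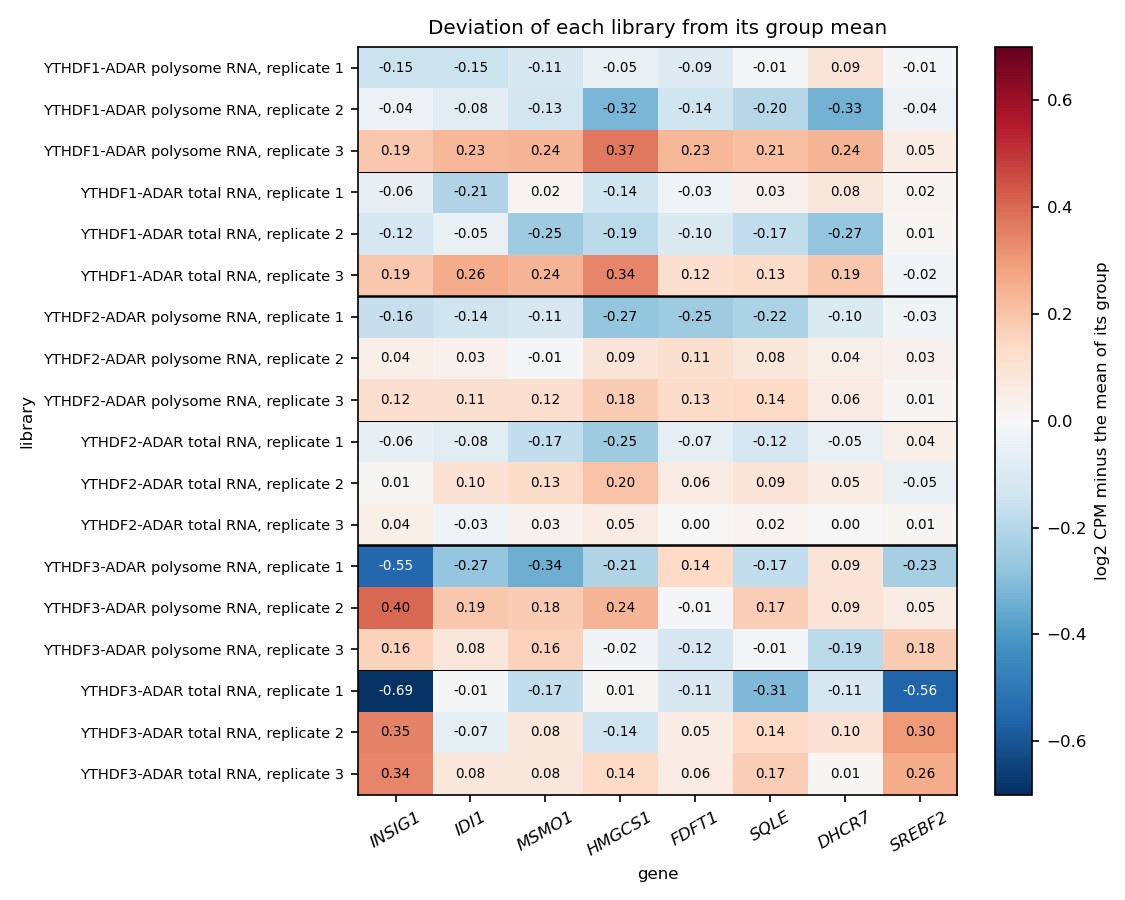
Log2 CPM of each gene (columns) in each library (rows) minus the mean of its group; red is above and blue below that mean. YTHDF1-ADAR replicate 3 is red and replicate 2 blue across the enzymes in both fractions, and YTHDF3-ADAR replicate 1 is deep blue for INSIG1 and, in total RNA, for SREBF2.

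Of 26796 other tested genes, the 10 that followed the mean of the members most closely over the 18 libraries were NEMP1, GPC3, BACH2, FDPS, TMEM209, TNC, GRIP1, MARCHF6, XPOT and SLC7A1, with r between 0.94 and 0.97, and the median of all ranked genes was 0.02. FDPS, farnesyl diphosphate synthase, sits between IDI1 and FDFT1 in the pathway, and MARCHF6 encodes a ubiquitin ligase of the endoplasmic reticulum that is known to act on squalene epoxidase. With Spearman correlation 7 of these 10 genes stayed among the top 10, and with the 9 total RNA libraries alone 2 did. The other synthesis enzymes did not follow as a group, with a median r of -0.09 over 16 genes that ran from FDPS at 0.96 to ERG28 at -0.61. The median r was 0.50 over 21 genes of sterol sensing, transport and storage and 0.54 over 11 genes of fatty acid synthesis.

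Editing was read from the authors' deposited editing tables. For each gene and fusion they give a number of edited sites and a score per fraction. Each is 1 value over the replicates, so that no error can be stated. Edited sites do not measure binding directly, and no library without a fusion was analysed here to set apart other editing. ADARB1 averaged 38.9 CPM in total RNA with YTHDF2-ADAR, 247 CPM with YTHDF1-ADAR and 1460 CPM with YTHDF3-ADAR. Whether site numbers or the listing of genes depend on these unequal levels was not tested. HMGCS1 was the most edited member by sites. The authors' deposited table listed 21 sites for YTHDF1-ADAR, 20 for YTHDF2-ADAR and 26 for YTHDF3-ADAR, against a median of 4, 3 and 4 sites over all genes listed. This placed HMGCS1 at the 94.9th, 97.1th and 96th percentile of listed genes, and per kilobase of exon it had 3.17, 3.02 and 3.92 sites, against medians of 0.659, 0.491 and 0.816. SREBF2 followed with 8, 9 and 12 sites for YTHDF1-ADAR, YTHDF2-ADAR and YTHDF3-ADAR in the authors' deposited table.

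The remaining members carried few sites or none. DHCR7 was listed with 4 sites for YTHDF1-ADAR, FDFT1 with 2 for YTHDF1-ADAR and 3 for YTHDF3-ADAR, SQLE with 1 for YTHDF1-ADAR and IDI1 with 1 for YTHDF3-ADAR in the authors' deposited tables. MSMO1 and INSIG1 had no row in any of the 3. In all, 5, 2 and 4 of the 8 members were listed for YTHDF1-ADAR, YTHDF2-ADAR and YTHDF3-ADAR. Among the 4364 protein-coding genes with mean levels in the members' range, 41.0 to 176 CPM, 68.5%, 49.5% and 68.4% were listed.

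Editing per site, the score divided by the number of sites, placed HMGCS1 between the 24th and the 58.7th percentile of listed genes. In the authors' deposited tables it was 0.943% in polysome RNA and 1.73% in total RNA for YTHDF1-ADAR, 0.882% and 0.890% in the same order for YTHDF2-ADAR, and 1.34% and 2.07% for YTHDF3-ADAR. The authors' adjusted p for these differences was 0.992, 1 and 0.975. SREBF2 had 0.687% in polysome RNA and 1.15% in total RNA for YTHDF1-ADAR, 0.550% and 0.601% for YTHDF2-ADAR, and 0.765% and 0.747% for YTHDF3-ADAR (authors' adjusted p 0.992, 1 and 1). Medians over all listed genes were 1.83%, 1.15% and 1.45% in polysome RNA and 2.01%, 1.19% and 1.76% in total RNA. FDFT1, with 2 and 3 sites, was highest per site of the listed members for YTHDF1-ADAR and YTHDF3-ADAR. It had 3.44% in polysome RNA and 3.51% in total RNA for YTHDF1-ADAR, and 2.96% and 3.09% for YTHDF3-ADAR. These values lay between the 73.6th and the 78.7th percentile of listed genes. For YTHDF1-ADAR, DHCR7 had 2.08% and 2.00%, and SQLE, with 1 site, 1.19% and 0.653%. IDI1, with 1 site, had 1.28% in polysome RNA and 0.431% in total RNA for YTHDF3-ADAR (authors' adjusted p 0.247). No listed member differed between fractions by the authors' adjusted p under 0.05, where 2.11%, 1.39% and 3.55% of listed genes did. The depth behind these scores is unknown.

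**Figure D4:**
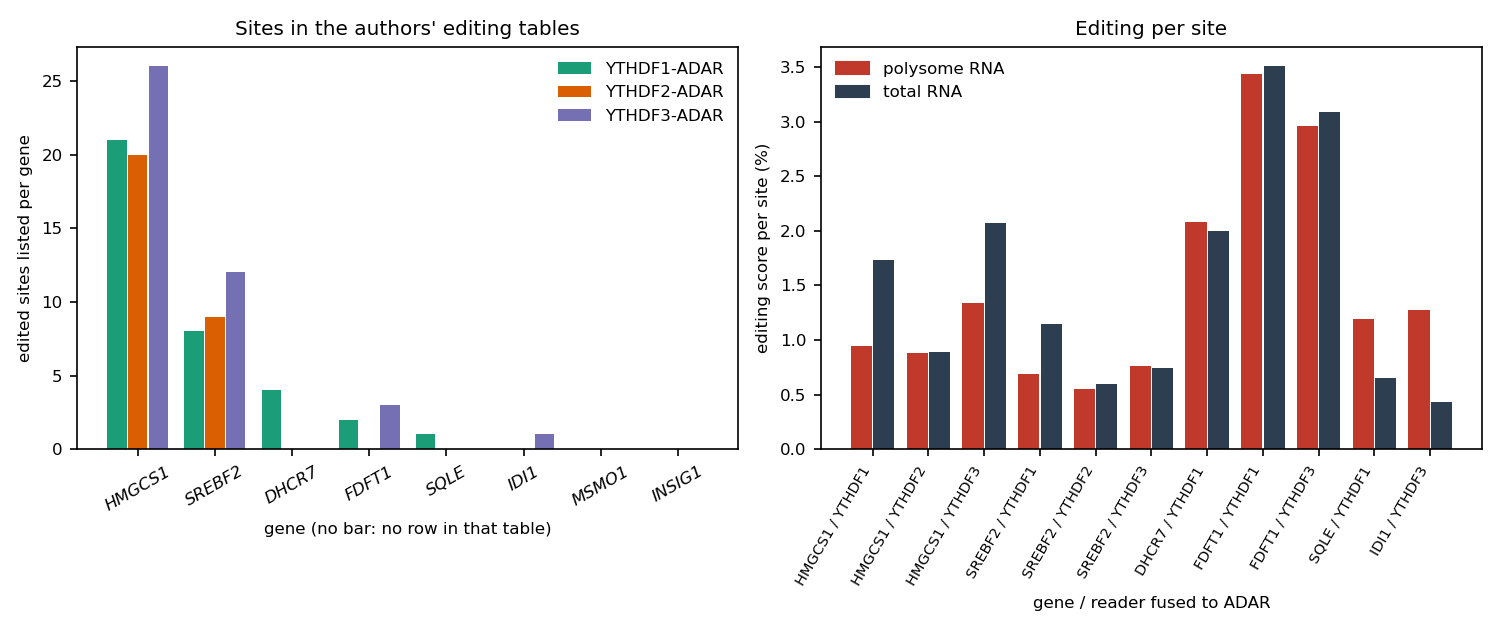
Left, the number of edited sites that the authors' deposited tables list for each gene and fusion; right, editing per site in percent in polysome RNA (red) and total RNA (dark) for each listed gene and fusion, 1 value each, so without error bars. HMGCS1 has 20 to 26 sites with each fusion, SREBF2 8 to 12, and MSMO1 and INSIG1 none.

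The rest of the route was read from 3 lists of further genes. Of 16 other synthesis enzymes 3, 2 and 4 were called higher on polysomes in cells with YTHDF1-ADAR, YTHDF2-ADAR and YTHDF3-ADAR and none lower, with medians of 0.25, 0.29 and 0.18. With the replicate block the counts were 8 higher and 1 lower, 7 and none, and 6 and 1. Over all tested genes the shares called higher were 9.26%, 6.71% and 8.01%, and 18.7%, 15.5% and 13.6% with the block, and the shares called lower 11.9%, 9.04% and 12.1%, and 18%, 15% and 20.1% with the block. No list was tested against the other genes. ERG28, known from yeast as a scaffold of the sterol demethylation enzymes to which MSMO1 belongs, rose in all 3 lines, by 0.54 ± 0.11, 0.53 ± 0.11 and 0.31 ± 0.10 on the log2 scale. SC5D, the desaturase before DHCR7, rose by 0.47 ± 0.13 in YTHDF1-ADAR and 0.71 ± 0.14 in YTHDF3-ADAR cells, and PMVK, phosphomevalonate kinase, by 0.31 ± 0.11 in YTHDF1-ADAR and 0.37 ± 0.11 in YTHDF2-ADAR cells. Of 21 genes of sterol sensing, transport and storage 3, 1 and 2 were called higher and 2, 0 and 1 lower (6, 6 and 5 higher and 2, 1 and 2 lower with the block). NPC2, a carrier of cholesterol out of lysosomes, rose by 0.47 ± 0.11 with YTHDF1-ADAR and by 0.52 ± 0.11 with YTHDF2-ADAR. MBTPS2, one of the proteases that cut SREBP precursors, rose by 0.36 ± 0.12 in YTHDF1-ADAR and 0.43 ± 0.12 in YTHDF3-ADAR cells, while SREBF1, which encodes the related factor, fell by 0.30 ± 0.10 and 0.37 ± 0.10 in the same lines.

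The 11 genes of fatty acid synthesis, the other arm under SREBP control, had 0, 0 and 2 calls higher with YTHDF1-ADAR, YTHDF2-ADAR and YTHDF3-ADAR, and 3, 2 and 2 calls lower (5, 4 and 3 higher and 3 lower in each line with the block). FASN, fatty acid synthase, had 267 ± 43.4 CPM in polysome RNA of YTHDF1-ADAR cells, against 830 ± 20.8 CPM in total RNA (SD, n = 3). It fell on polysomes by 1.64 ± 0.16, 1.48 ± 0.16 and 1.03 ± 0.16 on the log2 scale in cells with YTHDF1-ADAR, YTHDF2-ADAR and YTHDF3-ADAR (adjusted p = 7.49e-06, 2.4e-05 and 0.000428, edgeR). ACACA, acetyl-CoA carboxylase, fell by 0.44 ± 0.09, 0.30 ± 0.09 and 0.36 ± 0.09. Without TMM factors FASN was still called lower in all 3 lines (-1.21 ± 0.18, -1.11 ± 0.18 and -0.72 ± 0.17), while ACACA was near 0 (-0.01, 0.06 and -0.05) and SREBF1 was no longer called (0.13, 0.22 and -0.06). No member was called lower on polysomes in these fits.

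Between lines in total RNA, SCAP, the escort of the SREBF2 product, stood at 175 ± 25.6 CPM in YTHDF3-ADAR cells, against 117 ± 7.08 CPM in YTHDF1-ADAR cells, and rose with SREBF2 by 0.58 ± 0.11 on the log2 scale (adjusted p = 0.00231, edgeR). Against YTHDF2-ADAR cells SCAP rose by 0.51 ± 0.11 (adjusted p = 0.00378). Over all tested genes 18.1% were called in YTHDF3-ADAR against YTHDF1-ADAR cells, 22.8% against YTHDF2-ADAR cells and 1.83% in YTHDF2-ADAR against YTHDF1-ADAR cells. The synthesis list was mixed in YTHDF3-ADAR against YTHDF1-ADAR cells, with 1 call higher (FDPS, 0.37 ± 0.11) and 3 lower (SC5D, -0.68 ± 0.14, LBR, -0.40 ± 0.11, and CYP51A1, -0.39 ± 0.12). Against YTHDF2-ADAR cells there were 3 calls higher, TM7SF2 (0.55 ± 0.13), HSD17B7 (0.47 ± 0.14) and FDPS (0.32 ± 0.11), and 3 lower, ACAT2 (-0.56 ± 0.18), SC5D (-0.56 ± 0.14) and NSDHL (-0.51 ± 0.17). Without TMM factors none of these lower calls of synthesis genes remained, among them SC5D with -0.44 ± 0.17 and -0.37 ± 0.17. In the sensing and transport list 4 genes rose and 1 fell against YTHDF1-ADAR cells, and 4 rose against YTHDF2-ADAR cells. These included ABCG1, a cholesterol exporter, which had 5.20 ± 2.71 CPM in YTHDF3-ADAR cells, against 1.74 ± 0.148 CPM with YTHDF2-ADAR and 1.99 ± 0.227 CPM with YTHDF1-ADAR, and rose by 1.58 ± 0.36 and 1.38 ± 0.35 over them. Its level was low, and its YTHDF3-ADAR libraries ran from 2.12 to 7.22 CPM. The lowest of them lay within the YTHDF1-ADAR range of 1.75 to 2.20 CPM. In the fatty acid list 2 genes rose against YTHDF1-ADAR cells, ACSS2 (0.53 ± 0.16) and ACACA (0.44 ± 0.09). Against YTHDF2-ADAR cells 3 rose, FADS2 (0.66 ± 0.10), ACSS2 (0.57 ± 0.16) and ACACA (0.36 ± 0.09), and 1 fell, ACSL3 (-0.48 ± 0.16). In YTHDF2-ADAR against YTHDF1-ADAR cells the only call in the 3 lists was FADS2, which fell by 0.43 ± 0.10.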

How the data were processed

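Polysome and total RNA of HEK293T cells were sequenced after depletion of ribosomal RNA with a directional kit, per the labels' protocols. Per the submitters' processing notes, STAR 2.7.7, featureCounts 2.0.1 and DESeq2 were used on GRCh38 (hg38), with no strand setting stated. The deposited table holds counts per gene with no normalization by the authors. The authors' deposited comparison table, with signal (baseMean), log2 fold change and p-value columns, served for gene symbols only, since its contrast is not named. The authors' deposited editing tables hold sites, scores, a column of editing change that equals the natural log of an odds ratio, and p-values, over replicates. One row that names no human gene (at most 1.48e-05% of counts) was left out.

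The counts were fitted with edgeR 4.0.16 under R 4.3.3 (filterByExpr with a minimum count of 10, TMM, robust quasi-likelihood fit of 6 group means, 18 libraries, Benjamini-Hochberg over 26804 genes, threshold 0.05), and adjusted p-values without another name come from this fit. DESeq2 1.42.0 was an alternative. SE is the log2 fold change over the root of F. Log2 CPM used a prior count of 2. Exon length is the sum in the deposited table. Intervals were not computed; reads without molecular identifiers are not independent molecules, and errors cover the libraries compared. The fit was tested on simulated data.

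Within a line the labels number polysome and total RNA libraries alike. After subtracting group means, all 9 same-numbered pairs had r between 0.18 and 0.70, so the number was used as a block there, although 4 of 18 pairs of different number also exceeded 0.1. Across lines 9 of 18 same-numbered pairs did, and no pairing was assumed.

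Named genes are the 8 members, up to 4 genes per list with the largest mean change among those called alike in at least 2 lines, up to 4 per contrast of total RNA, and the 10 genes most correlated with the members. Members and lists were chosen with earlier results of these data known.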

Additional observations from a re-analysis of the deposited data

How the results depend on the processing

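The counts of members called were 1, 1 and 2 of 8 for polysome against total RNA with YTHDF1-ADAR, YTHDF2-ADAR and YTHDF3-ADAR, none for YTHDF2-ADAR against YTHDF1-ADAR in either fraction, 2 for YTHDF3-ADAR against YTHDF1-ADAR and 1 for YTHDF3-ADAR against YTHDF2-ADAR in each fraction, and none for the differences of association. Without normalization factors polysome against total RNA gave 7, 7 and 5, all higher, and YTHDF3-ADAR against YTHDF1-ADAR gave 1 in total and 1 in polysome RNA. That setting moved the median of all genes to 0.46, 0.40 and 0.25, against member medians of 0.68, 0.60 and 0.58. DESeq2 gave 2 with YTHDF2-ADAR and 3 with YTHDF3-ADAR (HMGCS1 gained, as with DESeq2 size factors and without the filter), 1 (lower) for YTHDF2-ADAR against YTHDF1-ADAR in each fraction, and 2 for YTHDF3-ADAR against YTHDF2-ADAR in total RNA. Fits of the compared libraries alone gave 3 with YTHDF2-ADAR and 0 with YTHDF3-ADAR, 1 for YTHDF2-ADAR against YTHDF1-ADAR, 0 for YTHDF3-ADAR against either line in total RNA, and 1 against YTHDF1-ADAR in polysome RNA. The replicate block gave 5, 4 and 4, and 1 for YTHDF3-ADAR against YTHDF1-ADAR in total RNA, where numbers do not pair samples; it changed no other call of a member. Without both YTHDF3-ADAR replicate 1 libraries, chosen after seeing the data, the counts were 4 in YTHDF3-ADAR cells, 3 (total RNA) and 4 (polysome RNA) against YTHDF2-ADAR cells and 3 in each fraction against YTHDF1-ADAR cells (INSIG1 gained), where 29.9%, 50.3%, 49%, 46.3% and 47.6% of genes were called. The cause of these moves was not tested.

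Leaving out 1 library at a time gave 0 to 2, 0 to 1 and 0 to 3 calls for polysome against total RNA with YTHDF1-ADAR, YTHDF2-ADAR and YTHDF3-ADAR. In YTHDF3-ADAR against YTHDF1-ADAR it gave 1 to 2 in either fraction, and against YTHDF2-ADAR 1 to 2 in total and 0 to 3 in polysome RNA; the rest stayed at 0. Of 1352 member fold changes under an alternative, 1265 kept their side of the threshold, 51 gained a call and 36 lost one. The sign changed in 105 of the 1265, 16 of them without normalization factors (SREBF2 on polysomes among them), where the values were between -0.28 and 0.18 in the fit as reported; none of these was called in either fit. Neither a stricter threshold nor a minimum of 5 sites gave an authors' editing call for a member.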
